A study of Homo sapiens with 6 samples.

Results

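The regions described here are the TLE3 binding regions of GSE1, a gene on the long arm of chromosome 16 (chr16:85169512-85676200, hg38). They come from chromatin immunoprecipitation and sequencing (ChIP-seq) of TLE3 in MDA-MB-453, an established human breast cancer cell line. A region was formed by merging overlapping peaks of 4 libraries, and it belonged to GSE1 when it lay inside the gene's span or when GSE1 was the nearest protein-coding gene within 100 kb. This gave 104 of the 72272 merged regions of the series, 97 inside the span and 7 before its start, at most 24758 bp away. GSE1 was chosen by these same peak calls, as the gene with the most regions, so its counts are given as a description and carry no test. The study asked whether TLE3 needs FOXA1 to bind. Its groups were siNS, without FOXA1 silencing, and siFOXA1, with transient FOXA1 silencing, each with 2 libraries that the labels call biological replicates, all from the same cell line with the same TLE3 antibody. The labels name no other treatment, no genotype change and no time of silencing. Peaks with scores were listed separately for each library, and scores were read as percentiles, the share of a list's peaks that score at or below a given peak. Read counts are not in these lists, so depth is unknown, and FOXA1 and GSE1 levels were not measured.

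TLE3 is a corepressor of the Groucho family. It does not recognise DNA itself, is brought to chromatin by transcription factors and works with histone deacetylases. FOXA1 is a forkhead pioneer factor that opens chromatin in luminal breast cells. GSE1 encodes a coiled-coil protein found in corepressor complexes with the histone demethylase KDM1A (LSD1) and histone deacetylases, so the locus is itself a corepressor gene.

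The RefSeq start site of GSE1 (position 85613322, forward strand) lies far inside the annotated span, with 443.8 kb of the span before it and 62.9 kb after it. Only this start site was used, and distances below refer to it. No GSE1 promoter window was taken at the upstream end of the span, where the regions within 1 kb had no siFOXA1 peak. The promoter window around it, 250 bases before to 50 bases after the start, had a TLE3 peak in all 4 libraries. Of 7792 protein-coding promoter windows with a peak in both siNS libraries, 61 also had a peak in both siFOXA1 libraries (0.783%), and the GSE1 window was among these. Windows of a pair of long noncoding RNA genes at the same locus had siNS peaks and no siFOXA1 peak. The window of LOC105371382 (chr16:85168977-85169276, reverse strand), which lies next to the upstream end of the GSE1 span, had a peak in both siNS libraries. That of LOC124903738 (chr16:85462619-85462918, reverse strand), inside the span, had a peak in siNS 1, within a region that both siNS libraries shared. The 3 windows are shown as RefSeq gives them on GRCh38.p14, 5′ to 3′ along each gene's own strand, because they hold the kept promoter (chr16:85613072-85613371) and the windows without a siFOXA1 peak. Capitals mark matches to the motifs searched.
GSE1: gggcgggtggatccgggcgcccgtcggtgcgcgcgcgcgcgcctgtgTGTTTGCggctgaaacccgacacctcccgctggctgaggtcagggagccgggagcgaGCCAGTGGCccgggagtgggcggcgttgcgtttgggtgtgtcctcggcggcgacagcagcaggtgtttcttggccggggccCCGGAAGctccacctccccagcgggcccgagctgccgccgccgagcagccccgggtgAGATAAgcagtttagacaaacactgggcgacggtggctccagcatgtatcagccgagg
LOC105371382: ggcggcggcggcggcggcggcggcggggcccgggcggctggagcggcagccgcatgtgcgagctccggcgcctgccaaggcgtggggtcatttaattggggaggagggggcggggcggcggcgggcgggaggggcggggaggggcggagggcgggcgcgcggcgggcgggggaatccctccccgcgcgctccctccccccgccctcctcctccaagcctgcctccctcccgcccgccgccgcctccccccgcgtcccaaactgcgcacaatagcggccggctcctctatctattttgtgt
LOC124903738: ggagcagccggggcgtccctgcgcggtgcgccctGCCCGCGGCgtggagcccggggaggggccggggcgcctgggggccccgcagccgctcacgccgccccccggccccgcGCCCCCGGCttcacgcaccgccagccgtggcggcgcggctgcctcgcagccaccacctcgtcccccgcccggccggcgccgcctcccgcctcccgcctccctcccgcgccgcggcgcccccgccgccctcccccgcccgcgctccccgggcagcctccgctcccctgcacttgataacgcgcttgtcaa

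The GSE1 window held 1 match each to a forkhead motif (TGTTTGC, starting 203 bases before the start site), an AP-2 motif (GCCNNNGGC, 146 before), an ETS motif (CCGGAAG, 65 before) and a GATA motif (AGATAA, 8 before). The LOC124903738 window held 2 matches to the AP-2 motif and the LOC105371382 window held no match. Both strands were searched, and the AP-2 motif reads the same on both. Among 34943 RefSeq promoter windows of the same length, 3.89% held TGTTTGC, 23.2% the AP-2 motif, 10.2% CCGGAAG and 10.4% AGATAA. The other motifs searched were TGTTTAC (forkhead, in 3.42% of windows), CTTTGAT (TCF/LEF, 2.63%), CACGTG (E-box, 7.23%), TGTGGTT (RUNX, 4.27%) and TGANTCA (AP-1, 7.72%), with no match in the 3 windows. All 3 windows were rich in G and C, at 71.0%, 78.7% and 84.0% against a median of 58.7%, and held 34, 42 and 48 CpG pairs against a median of 14. A match describes letters in the window and is not a measured binding site.

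After silencing, TLE3 at the GSE1 promoter was called as short separate peaks that stopped at the start site, in place of the broad siNS peak across it. The merged region there (chr16:85609687-85616415) was 6729 bp wide, the second widest of the 72272 regions, whose median was 409 bp. In siNS 1 its main peak ran from 3380 bp before the start site to 1576 bp after it, with a score of 235 (rank 284 of 45105). In siNS 2 the main peak ran from 3635 bp before to 2151 bp after, with a score of 168 (rank 646 of 46586). Each siNS library also had a smaller peak farther into the gene, with scores of 36.7 and 12.1. The siFOXA1 1 list had 3 peaks in the region, scoring 8.53, 23.7 and 19.9, and the siFOXA1 2 list had 5, scoring from 5.09 to 14.9. All 8 of these began before the start site. The peak nearest to it ended 21 bp before it in siFOXA1 1 and 20 bp after it in siFOXA1 2. No siFOXA1 peak within this merged region lay farther into the gene. Peaks covered 95.2% and 93.1% of the region in siNS 1 and siNS 2 and 21.1% and 28.5% in siFOXA1 1 and siFOXA1 2. Only 2 of the 2602 regions found in all 4 libraries held as many as 8 siFOXA1 peaks, this region being 1 of them.

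**Figure D1:**
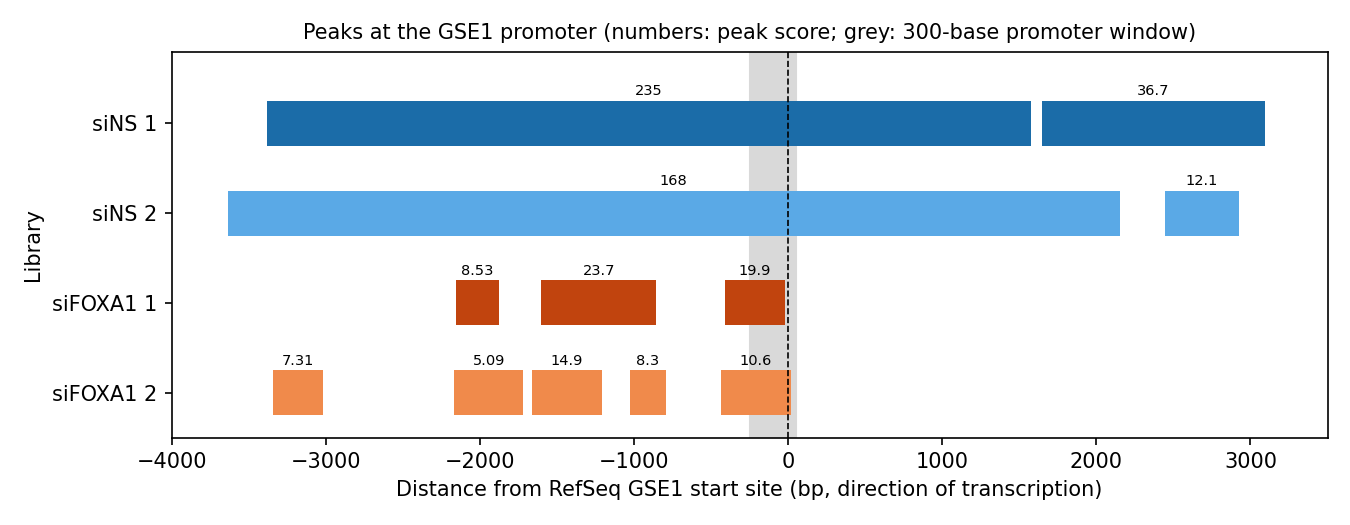
Peaks of each library (bars, 1 row per library) along the GSE1 promoter region, by distance in bp from the RefSeq start site (dashed line), with the authors' peak score above each bar and the 300-base promoter window in grey. The siNS bars cross the start site and reach 3093 bp (siNS 1) and 2923 bp (siNS 2) into the gene, while the farthest siFOXA1 bar ends 20 bp after the start site.

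The siNS libraries did not contribute equally at GSE1. siNS 1 had 104 peaks there in 99 regions, siNS 2 had 49 peaks in 45 regions, siFOXA1 1 had 19 peaks in 16 regions and siFOXA1 2 had 23 peaks in 19 regions. These were 0.231%, 0.105%, 0.155% and 0.167% of the peaks of lists holding 45105, 46586, 12249 and 13754 peaks on the chromosomes used. A peak in siNS 1 alone was found for 59 regions (26.0% of all merged regions in the series were of this kind), and a peak in siNS 2 alone for 5 (21.1% in the series). On the rest of chromosome 16 there were 1061 siNS 1 and 644 siNS 2 regions of these kinds. The 59 regions were weak, with a median percentile of 18.5 and a highest of 71.1. By definition none of these 59 has a siFOXA1 peak. Every GSE1 region with a siFOXA1 peak had a peak in both siNS libraries. Whether the siNS 1 surplus raised the number of regions found in both siNS libraries was not tested. What separates siNS 1 from siNS 2 here was not tested.

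A peak in both siNS libraries, called a siNS consensus region below, was found for 40 of the 104 GSE1 regions, and 19 of these also had a siFOXA1 peak. The other 21 were siNS-only, 20.2% of the GSE1 regions against 28.7% of all merged regions. Of the 19, 16 were common, with a peak in all 4 libraries, and 3 had a peak in siFOXA1 2 and none in siFOXA1 1. Common regions made up 15.4% of the GSE1 regions and 3.60% of all merged regions. The 19 of 40 are 47.5% (95% Wilson interval 32.9 to 62.5%), against 17.0% of the 24967 siNS consensus regions of the series. This interval covers counting error over regions only, and nothing is read from the comparison, because the gene was chosen on these calls. Leaving out siNS 2, so that every siNS 1 region counts, gave 18.3% at GSE1 and 9.55% in the series. With all lists limited to their 12249 highest scores the shares were 72.0% and 32.3%.

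No GSE1 region had a siFOXA1 peak without a siNS peak. In the series, 53.1% of the 17518 regions with a siFOXA1 peak had none in siNS. All 16 regions of siFOXA1 1 at GSE1 recurred in siFOXA1 2, against 67.9% of its regions in the series, and 16 of the 19 regions of siFOXA1 2 recurred in siFOXA1 1, against 60.2%. Of siNS 2 regions 40 of 45 recurred in siNS 1 (88.9%, against 56.7% in the series), and of siNS 1 regions 40 of 99 in siNS 2 (40.4%, against 56.9%). The siFOXA1 calls at GSE1 were thus a subset of the siNS calls, as was nearly all of siNS 2 of siNS 1.

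**Figure D2:**
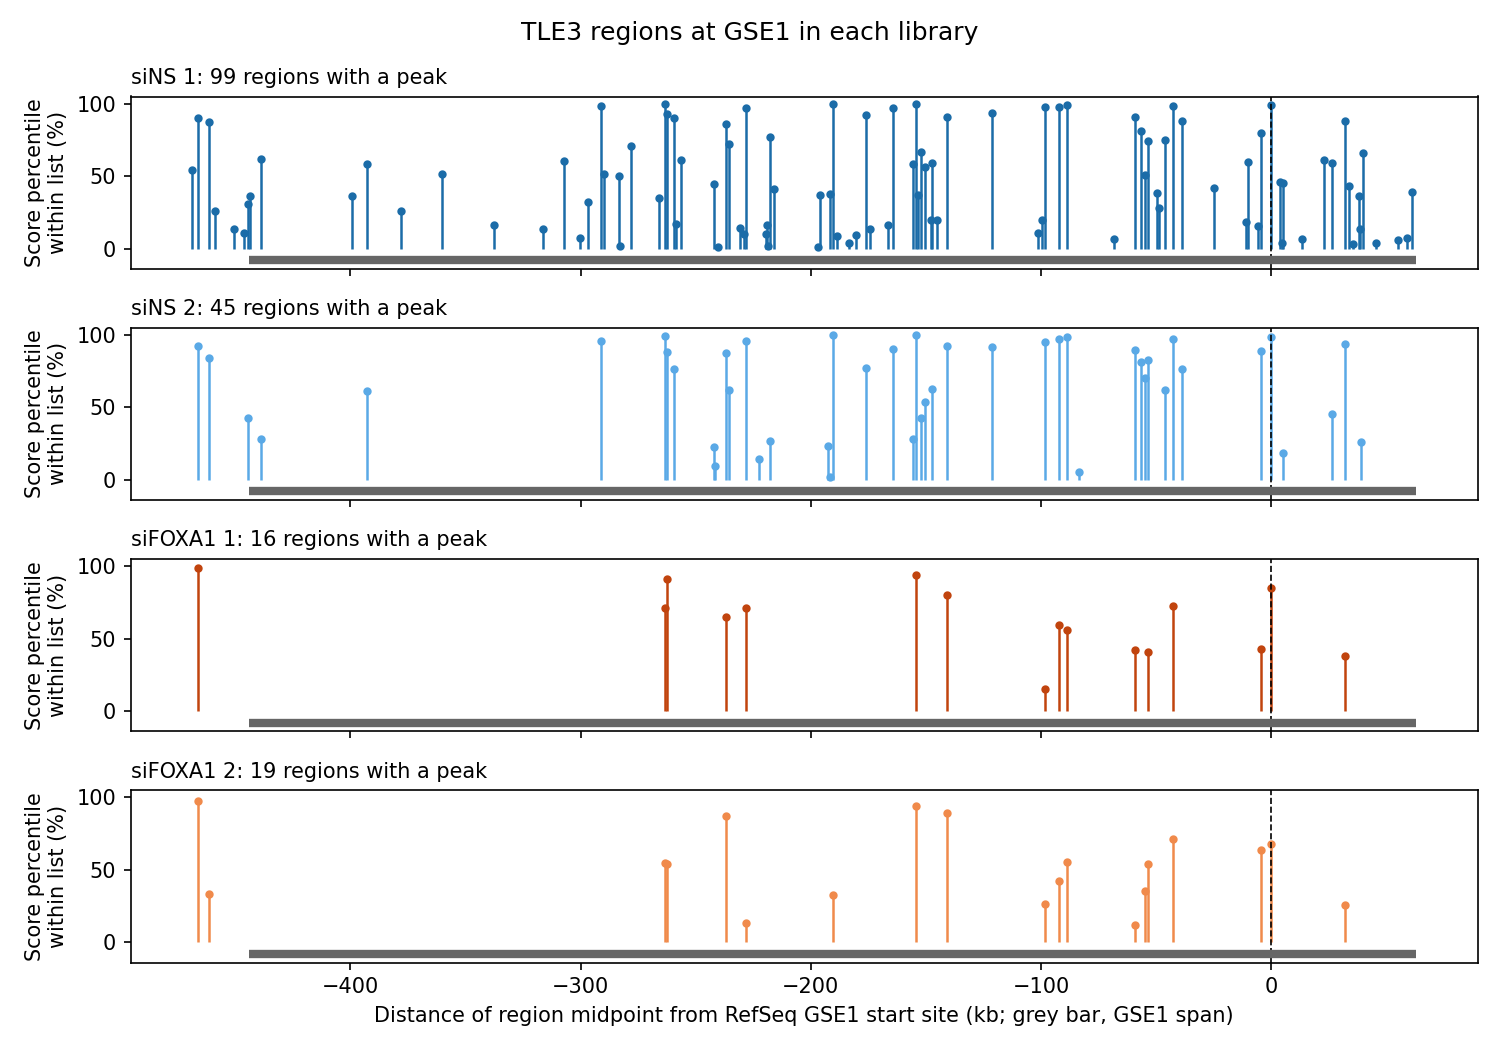
Regions assigned to GSE1 in each library (1 panel per library), by the distance in kb of the region's midpoint from the RefSeq start site (dashed line); the height of each stick is the percentile of the region's best peak score within that library's list and the grey bar is the span of GSE1. siNS 1 has 99 sticks, siNS 2 has 45, siFOXA1 1 has 16 and siFOXA1 2 has 19, and every siFOXA1 stick stands at a position that both siNS libraries share.

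By mean siNS percentile the strongest region of the locus lay inside the span, 154 kb before the start site, and overlaps the gene of LOC124903738 (chr16:85458398-85459534, 1137 bp). It ranked 193 of 45105 in siNS 1 and 88 of 46586 in siNS 2, with scores of 272 and 355. In siFOXA1 it ranked 747 of 12249 and 862 of 13754, with scores of 40.3 and 43.4, the percentiles 93.9 and 93.7. It therefore stood high in all 4 lists. Next came a region 191 kb before the start site (chr16:85421970-85423637, 1668 bp), at ranks 132 and 155 in siNS, the higher of the pair in siNS 1 and the lower in siNS 2. That region had no peak in siFOXA1 1 and a low one in siFOXA1 2, with a score of 7.70 (percentile 32.9). Equally strong siNS regions thus differed in what the siFOXA1 lists held.

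Another 6 common regions, the promoter region aside, were among the 10 strongest in siNS and had lower percentiles in both siFOXA1 lists. The region at chr16:85349255-85350399 was at percentiles 99.5 and 99.4 in siNS 1 and siNS 2 and at 71.1 and 54.9 in siFOXA1 1 and siFOXA1 2. At chr16:85523369-85525635, 2267 bp wide, the percentiles were 99.4 and 98.8 in siNS and 55.8 and 55.4 in siFOXA1. In all 6 regions both siFOXA1 percentiles were below both siNS percentiles. This held for 13 of the 16 common GSE1 regions and for 61.0% of the 2602 common regions of the series. At chr16:85569669-85571866 the values were 98.3 and 97.4 in siNS and 72.5 and 71.1 in siFOXA1. The region at chr16:85520657-85521697, which overlaps the noncoding gene LOC124903739, was at 98.0 and 97.2 in siNS and 59.2 and 42.5 in siFOXA1. The lowest of them in siFOXA1 was chr16:85514115-85515994, at 97.8 and 95.3 in siNS and 15.2 and 26.6 in siFOXA1. The sixth, chr16:85384436-85386153, was at 97.0 and 95.9 in siNS, and its siFOXA1 libraries differed, at 71.5 and 13.6.

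Outside the span, 466 kb before the start site, was the 1 common region whose percentiles in both siFOXA1 lists were above those in both siNS lists. This region (chr16:85146788-85147831, 1044 bp) overlaps the noncoding genes LINC02139 and LOC105371382. Its scores were 57.4 and 64.4 in siNS and 83.3 and 69.3 in siFOXA1, and its percentiles 90.4 and 92.4 against 98.5 and 97.2. In ranks it stood at 183 of 12249 in siFOXA1 1 and 383 of 13754 in siFOXA1 2, and no GSE1 region ranked higher in either list. Both siFOXA1 percentiles were above both siNS percentiles in 226 of the 2602 common regions of the series (8.69%).

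The remaining 7 common regions had siNS percentiles between 74.3 and 94.0. The one at chr16:85471767-85473247 had the closest percentiles in the groups, at 90.6 and 92.1 in siNS and 80.0 and 89.3 in siFOXA1. That at chr16:85350625-85351403 was at 92.8 and 88.4 in siNS, with siFOXA1 libraries apart at 91.4 and 54.3. At chr16:85375943-85376937 siNS gave 86.2 and 87.7 and siFOXA1 64.8 and 86.9. In all 7 the siFOXA1 percentiles differed from each other by more than the siNS percentiles did. The widest after the promoter region was chr16:85552308-85555753, 3446 bp, at 90.5 and 89.8 in siNS and 42.4 and 12.2 in siFOXA1. Past the start site lay chr16:85644800-85645770, at 87.8 and 94.0 in siNS and 38.1 and 25.5 in siFOXA1. Near the promoter, chr16:85608330-85609087 was at 79.7 and 88.6 in siNS and 42.9 and 63.7 in siFOXA1. The weakest in siNS was chr16:85559088-85559906, at 74.3 and 82.7, with 40.9 and 54.3 in siFOXA1.

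**Figure D3:**
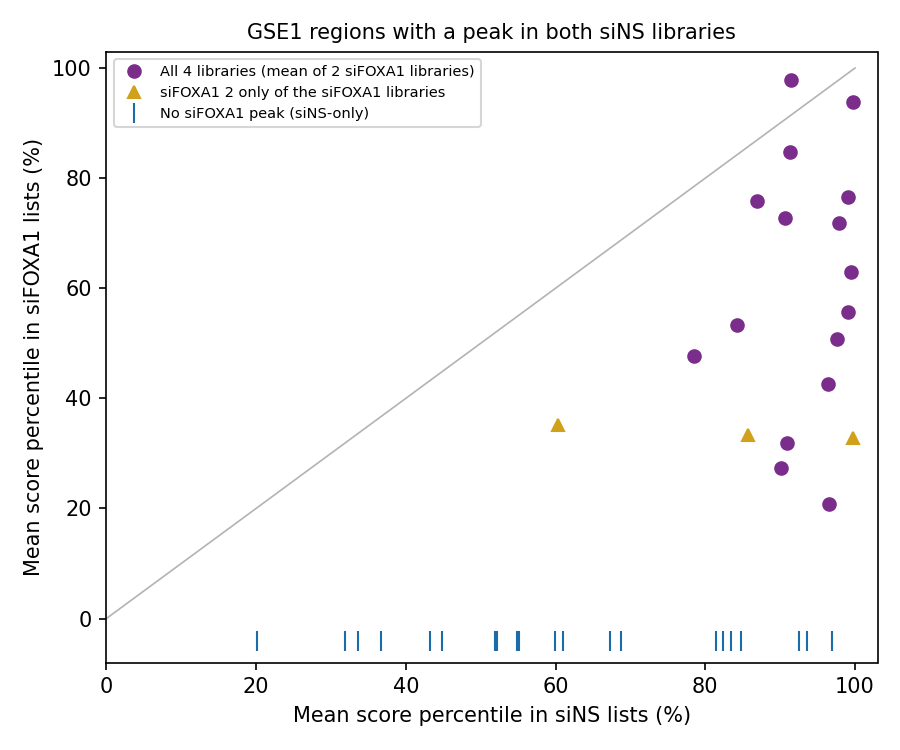
Mean score percentile in the siNS lists (x) and in the siFOXA1 lists (y) for GSE1 regions with a peak in both siNS libraries: circles for the 16 regions of all 4 libraries, triangles for the 3 with a peak in siFOXA1 2 only of that group (its value is plotted), and ticks at the bottom for the 21 without a siFOXA1 peak; the grey line marks equal percentiles. The single circle above the line is the region 466 kb before the start site.

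Across the 16 common regions TLE3 peaks covered fewer bases after silencing. The siNS peaks of a region covered 714 to 6405 bp in siNS 1 (median 1108) and 552 to 6264 bp in siNS 2 (median 1006.5). The siFOXA1 peaks covered 278 to 1418 bp in siFOXA1 1 (median 437.5) and 231 to 1916 bp in siFOXA1 2 (median 395.5). In all 16 both siFOXA1 values were below both siNS values, which held for 66.5% of the 2602 common regions of the series. The cover in siFOXA1 was 39.8% of that in siNS at the median GSE1 region and 58.0% at the median common region of the series. Median cover over the common regions of the series was 647 bp in siNS 1, 840 bp in siNS 2, 411.5 bp in siFOXA1 1 and 424 bp in siFOXA1 2. The siFOXA1 cover at GSE1 was thus near that of the series, while the siNS cover was larger at GSE1. Both siFOXA1 percentiles were below both siNS percentiles in 13 of the 16, and in 61.0% of common regions of the series. This direction depends on the length of the lists, since a percentile is relative to its own list. By rank, counted from the highest score, both siFOXA1 libraries stood lower than both siNS libraries in 10 of the 16 and higher in 4. In the series they stood lower in 31.7% and higher in 32.3% of common regions. The 4 were the region 466 kb before the start site and those at chr16:85375943-85376937, chr16:85471767-85473247 and chr16:85559088-85559906. The ranks of the 16 in the groups were weakly related (Spearman's rho 0.28 across regions, which share their libraries). Over the common regions of the series rho was 0.17. The siFOXA1 lists held fewer and narrower peaks over the whole genome as well, and the part of this in the values at GSE1 was not tested.

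**Figure D4:**
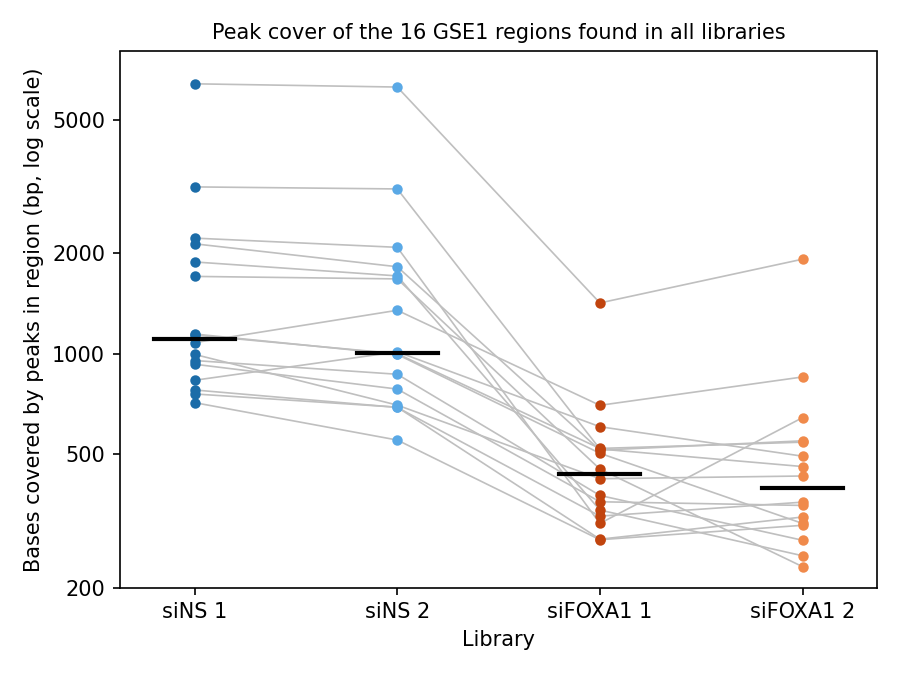
Bases covered by peaks (log scale) in each library for the 16 GSE1 regions found in all 4 libraries; grey lines join the values of a region and black bars are medians. Every siFOXA1 value lies below both siNS values of the same region.

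Over all peaks at GSE1, the median width was 489 bp in siNS 1, 691 bp in siNS 2, 377 bp in siFOXA1 1 and 352 bp in siFOXA1 2. The group means were 590 ± 143 bp and 364.5 ± 17.7 bp (mean ± SD, n = 2 each), and each siNS value was higher than each siFOXA1 value. The exact permutation test (two-sided) gave p = 0.333, the smallest value that 2 against 2 libraries allow. Their whole lists had medians of 419, 446, 336 and 347 bp. The median score percentile at GSE1 was 44.9 in siNS 1, 76.9 in siNS 2, 64.8 in siFOXA1 1 and 51.0 in siFOXA1 2, with group means of 60.9 ± 22.6 and 57.9 ± 9.75 (SD, n = 2 each). These groups overlapped (exact permutation test, two-sided, p = 1). The difference was 32.4 within the 16 common regions, 13.5 with equally long lists and 13.1 with peaks below their list's median left out, each without overlap (exact permutation p = 0.333). The difference of 2.99 changed to -13.0 without siNS 2, -3.91 without siFOXA1 2 and 19.0 without siNS 1.

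The 21 siNS-only regions were weaker than the common ones and included a few strong peaks. Their median mean percentile was 59.9 (63.4 for siNS-only regions of the series), with a range of 20.1 to 96.9, against a median of 93.9 for the 16 common regions (87.9 in the series). The strongest lay 291 kb before the start site (chr16:85321722-85322986, 1265 bp), at ranks 796 in siNS 1 and 2025 in siNS 2 and percentiles 98.2 and 95.7. Next were chr16:85448729-85449531, inside LOC124903738, at 97.0 and 90.1, and chr16:85491135-85493155, 2021 bp wide, at 93.4 and 91.6. These 3 had no peak in either siFOXA1 list although their siNS percentiles lay within the range of the common regions. The widest siNS-only region was chr16:85461741-85464170, with 2430 bp at moderate percentiles of 56.5 and 53.7, and it holds the LOC124903738 promoter window printed above. At the upstream end of the span the siNS-only region chr16:85168948-85169259 was small, 312 bp at percentiles 30.7 and 42.6, and holds most of the LOC105371382 window. The region over this end itself (chr16:85169427-85169864) had a peak in siNS 1 alone, at percentile 36.5.

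The 3 regions shared by both siNS libraries and siFOXA1 2 ranged from 640 to 1668 bp. Besides the strong region already named, these were chr16:85151444-85152227, at 87.5 and 84.0 in siNS and 33.3 in siFOXA1 2, and chr16:85558100-85558739, at 50.7 and 70.0 in siNS and 35.1 in siFOXA1 2. In siFOXA1 2 the 3 values lay between percentiles 32.9 and 35.1, while the siNS percentiles ran from 50.7 to 99.7. The 64 regions with a peak in a single siNS library were narrow, 244 to 987 bp with a median of 342.5 bp. One of them, chr16:85306146-85306503 in siNS 1, covers the whole annotated microRNA gene MIR5093. No merged region overlapped the other microRNA gene in the span, MIR12128, or GSE1-AS1, the annotated antisense gene.

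The siFOXA1 peaks at GSE1 lay mostly on strong siNS regions. When the 24967 siNS consensus regions of the series were divided into 5 equal groups by mean siNS percentile, 18 of the 40 GSE1 regions fell in the strongest group, and 15 of these had a siFOXA1 peak. In the next group 3 of 7 had one, in the middle group 1 of 4, and in the lowest groups 0 of 6 and 0 of 5. The shares for all regions were, from strongest to weakest, 42.6%, 17.2%, 12.3%, 8.33% and 4.37%. Only 1 siNS consensus region of GSE1 lay within 1 kb of an annotated end of a protein-coding gene, and it had no siFOXA1 peak. In the series 10655 of the 24967 siNS consensus regions lay that near, and 6.28% of them had a siFOXA1 peak. Farther than 1 kb from a gene end, 19 of 39 regions at GSE1 and 24.9% of 14312 in the series had one. Among regions of the strongest group farther than 1 kb from any gene end, 15 of 18 at GSE1 and 56.3% of 2877 in the series had a siFOXA1 peak. The promoter region counts here as far from an end, because the RefSeq start site is not an end of the span. At GSE1 the siNS lists ranked the 40 regions alike (Spearman's rho 0.92 across regions, 0.65 over all siNS consensus regions).

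Most siNS consensus regions lay in the middle of the locus, before the start site. When the span was divided into 10 equal parts of 50.7 kb, the first 3 held 1, 1 and 0 siNS consensus regions, and the next 7 held 5, 6, 8, 3, 8, 3 and 2. Regions with a siFOXA1 peak numbered 0 in each of the first 3 parts and 2, 3, 2, 2, 5, 2 and 1 in the others. Of the siNS consensus regions 36 lay wholly before the start site, 17 of them with a siFOXA1 peak, and 3 wholly after it, 1 with a siFOXA1 peak. The longest stretch without a siNS consensus region was 100868 bp (chr16:85220854-85321721), in which siNS 1 alone had peaks. Elsewhere the regions stood close together, with a median gap of 5034 bp between neighbours against 29193.5 bp in the series, and 14 of the 39 gaps were under 2 kb. The table of genes used gives no exons, so the place of a region among exons and introns is not stated. At the edges, the region before the first member (chr16:85138594-85139584, siNS-only, percentile 81.5) went to CIBAR2, and the region after the last (chr16:85676550-85676853, in a single siNS library, percentile 40.6) to GINS2.

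GSE1 had the most regions of any gene, yet it was not the densest locus per length of genome. Of 20037 protein-coding genes it ranked first by merged regions (104), siNS consensus regions (40) and common regions (16), and second by siNS-only regions (21, after BCOR with 25). Without siNS 1 it ranked second by siNS regions. By siFOXA1 consensus regions, those with a peak in both siFOXA1 libraries, it was second with 16, after MACROD2 with 17. MACROD2 had 26 regions with a siFOXA1 peak and no siNS peak, RAD51B 14 and DLG2 16, while GSE1 had none. Per 100 kb of assigned genome GSE1 had 7.47 siNS consensus regions over 535.5 kb, which ranked 29 among the 93 genes with at least 10 such regions (median 5.83). FGFR4, a receptor tyrosine kinase gene, had 32.3 per 100 kb over 31 kb, KRT7, a luminal keratin gene, 22.6, and LOC124905135 18.1. In windows of 500 kb moved by 50 kb, the fullest one at GSE1 held 44 siNS consensus regions. Of 60508 overlapping windows 63, those at GSE1 included, held as many or more, and the most was 53, on chromosome 1.

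The loci next to GSE1 by number of siNS consensus regions had from 1 to 11 with a siFOXA1 peak. BCOR, whose protein is a corepressor of BCL6, had 26 siNS consensus regions, of which 1 had a siFOXA1 peak, and no common region. At its promoter window each siNS library had a peak and the siFOXA1 libraries had none. In the series 61 of 7792 windows with a peak in both siNS libraries had one in both siFOXA1 libraries. Windows without any siFOXA1 peak were not counted over the series. ZMIZ1, a coregulator gene of the PIAS-like family, had 7 of 26 with a siFOXA1 peak and 5 common regions, and CASZ1, a zinc finger factor gene, 6 of 24 and 3. KCNMA1, a potassium channel gene, had 11 of 23 and 4. Among the 93 genes the median share was 21.4%, and 8 genes, GSE1 among them, had a share at or above the 47.5% of GSE1. These differences were not tested, since the genes were picked by the counts.

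**Figure D5:**
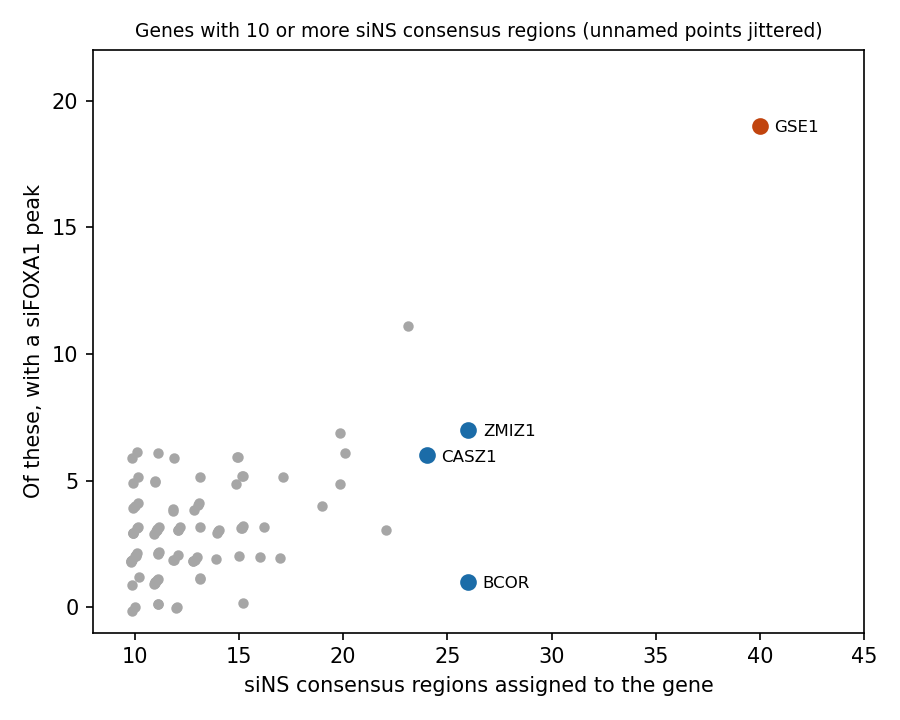
Number of siNS consensus regions (x) and how many of them had a siFOXA1 peak (y) for the 93 protein-coding genes with at least 10 siNS consensus regions; grey points are shifted slightly so that they do not hide each other, and the 4 named genes are not. GSE1 stands at 40 and 19, BCOR at 26 and 1, ZMIZ1 at 26 and 7, and CASZ1 at 24 and 6.

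By the pattern over the 4 libraries (Euclidean distance of log2 of regions with a peak plus 1, among the same 93 genes), KCNMA1 was most like GSE1, at 1.91, followed by ZMIZ1 at 2.32, RXRA at 2.45 and RAD51B at 2.52. KCNMA1 had 27, 50, 20 and 14 regions in siNS 1, siNS 2, siFOXA1 1 and siFOXA1 2, against 99, 45, 16 and 19 at GSE1. RXRA, the retinoid X receptor gene, had 46, 23, 6 and 6. Both had fewer siNS 1 regions than GSE1. The ratio of siNS 1 to siNS 2 single-library regions was also high at RXRA, with 26 and 3. Of the 87 genes with at least 5 single-library regions, 4, GSE1 included, had a siNS 1 share of these at or above the 92.2% of GSE1, and the median share was 63.6%.

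Genes of the LSD1 and CoREST corepressor complexes, with which the GSE1 protein is found, were also counted. Each had fewer siNS consensus regions than GSE1, which holds for every other gene, since GSE1 was chosen for having the most regions. All 14 genes of this list had a siNS consensus region, against 61.6% of all protein-coding genes, with a median of 2 and at most 4 per gene. The median of all protein-coding genes with any such region was 1. In merged regions the list reached 24, at CTBP2, and 11, at RCOR1. Of their 26 siNS consensus regions 4 had a siFOXA1 peak (15.4%), near the 17.0% of the series. KDM1A, the demethylase itself, had 1 region, and HDAC1, a deacetylase gene, had 3, none with a siFOXA1 peak. CTBP2, a corepressor gene that binds short peptide motifs, had 4, of which 1 had a siFOXA1 peak. HMG20B, a subunit gene of the complex, had 1 siNS consensus region, which was common, and 1 region in siNS 1 alone. Its promoter window had a peak in all 4 libraries, against 0.783% of the 7792 windows with a peak in both siNS libraries. Of the windows found for the list 10 had a peak in both siNS libraries. A siFOXA1 peak was found in 3, those of HMG20B, RCOR3 (siFOXA1 2 only) and ZNF217 (siFOXA1 1 only). RCOR1, the CoREST scaffold gene, had 3 siNS consensus regions without a siFOXA1 peak and 2 siFOXA1 consensus regions, so that 4 of the 14 genes had a region of the latter kind, against 19.3% of protein-coding genes. The list was written with earlier results of these data known, and its shares are given as counts.

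The neighbours of GSE1 on chromosome 16 each had fewer regions than GSE1, which its choice as the gene with the most regions fixed in advance. The 24 other protein-coding genes with an end within 1 Mb of an end of GSE1 had 35 siNS consensus regions together, on 14 of them, and 5 of these had a siFOXA1 peak (14.3%). C16orf74 had 7, of which 1 had a siFOXA1 peak, CRISPLD2, a secreted protein gene, 6 with 3, and ZDHHC7, a palmitoyltransferase gene, 4 with 0. GINS2, a replication helicase gene that adjoins the end of GSE1, had no siNS consensus region assigned, although its promoter window had a peak in both siNS libraries. None of the promoter windows found for these neighbours had a siFOXA1 peak, and 9 of the windows had a peak in both siNS libraries. In the series 0.783% of the 7792 windows of the latter kind had a peak in both siFOXA1 libraries. The larger share with a peak in at least 1 siFOXA1 library, which would match the statement on the neighbours, was not counted. On chromosome 16 without GSE1, 197 of 1205 siNS consensus regions had a siFOXA1 peak (16.3%).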

How the data were processed

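Per the submitters' processing notes, the authors used Trim Galore, BWA 0.7.5a, SAMtools and MACS2 with build hg38; peak-calling thresholds and any use of inputs are not given in the sources. Each ChIP library has 1 peak list deposited by the authors (chromosome, start, end, name and score); the definition of the deposited score is not stated, and it served only for ranks inside 1 list. The 2 input libraries, labelled MDA-MB-454, were not analysed here. For siFOXA1 2 the list's name carries another number, and the number of the sample title was used. Mitochondrial peaks (3 to 9 per list) were left out. Positions are 1-based.

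Peaks sharing at least 1 bp were merged over the 4 lists, and regions were assigned with RefSeq genes on GRCh38.p14, overlapping genes being separated by the nearer end of the gene. Assigned length was counted on a 500 bp grid. Per-library medians were tested with an exact permutation test (two-sided). Merging, classes and assignment were tested on 3000 simulated regions, all recovered. Regions named were the 10 strongest in siNS, all common ones, the 5 strongest in siFOXA1, the 5 widest and those at gene ends or the promoter; other regions, the noncoding windows and single-library regions named were picked after their values were seen. One gene that the naming rule picks is not reported here. The members and lists were chosen with earlier results of these data known. Alternatives were another score threshold, list length, overlap, merging distance and assignment, and leaving out each library. Python 3.11.15, numpy 2.4.6, scipy 1.17.1 and matplotlib 3.10.9 were used.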

Additional observations from a re-analysis of the deposited data

How the results depend on the processing

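The siNS consensus count at GSE1 was 40 and ranged from 40 to 104 when a library was left out, 104 being the value without siNS 2. The siNS-only count of 21 then ranged from 21 to 85, the share of siNS consensus regions with a siFOXA1 peak from 18.3 to 47.5%, and the rank of GSE1 among genes from 1 to 2, the latter without siNS 1. With equally long lists there were 25 siNS consensus and 7 siNS-only regions, and 72.0% had a siFOXA1 peak. When peaks below their list's median score were dropped, there were 9 common and 9 siFOXA1 consensus regions. With regions given to the nearest gene end, GSE1 had 5 siNS consensus, 3 siNS-only, 1 common and 1 siFOXA1 consensus regions and ranked 435. Of the 40 siNS consensus regions 30 then lay over 100 kb from every gene end and 5 went to GINS2. The difference of median score percentiles (siNS minus siFOXA1, 2.99) was -13.0 without siNS 2, -3.91 without siFOXA1 2, 19.0 without siNS 1, 13.1 above the median score, 13.5 with equally long lists and 32.4 in common regions. The width difference was 225.5 bp and became 124.5 bp without siNS 2, 326.5 bp without siNS 1, 373 bp above the median score, 672 bp with equally long lists and 652 bp in common regions. With ranks in place of percentiles (chosen after seeing the data), 10 in place of 13 common regions stood lower in both siFOXA1 lists and 4 in place of 1 stood higher. With the replicate number as a block, the differences stayed 225.5 bp for width (exact sign-flip permutation p = 0.5, the smallest for 2 pairs) and 2.99 for the percentile (p = 1); the numbers are not known to mark shared cultures. Of the 78 values under other settings, ranks in place of percentiles aside, 62 stayed close to the main value. Close meant within 1.5 times a count, inside the interval of the share, or the same sign for the width and percentile differences. The replicate block leaves a difference unchanged, so its values are among the 62 by construction. Leaving out a siFOXA1 library likewise hardly bears on the siNS consensus count and rank, nor leaving out a siNS library on the siFOXA1 consensus count. The sign of the width difference could not turn when 1 library was left out, since each siNS value was above each siFOXA1 value. Common and siFOXA1 consensus counts were equal under every setting. The 62 is therefore no measure of stability. The exact permutation p-values, which for 2 against 2 libraries cannot fall below 0.333, were not part of this count. Depth is unknown, so the absence of a peak is not the absence of binding.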
